A study of Rattus norvegicus with 2 samples.

Results

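Circular RNAs (circRNAs) hosted by genes of presynaptic vesicle release and recycling made up 130 of the 11599 circRNAs listed in rat spinal cord, and came from 44 of 3865 host genes. They were chosen by gene name alone: ELKS (Erc), liprin-alpha (Ppfia), piccolo (Pclo), Unc13, Cadps, syntaxin and syntaxin-binding, SNAP, VAMP, synaptotagmin, Sv2, synapsin, dynamin, intersectin and synaptojanin families, with Nsf and Rph3a. The other names searched, which were Bsn, Napb and the Cplx, Doc2 and Rab3 families, hosted no listed circRNA. The active zone genes Rims1 and Rims2 were left out by the same rule.

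The bone cancer pain (BCP) group had received live Walker256 rat mammary carcinoma cells in the marrow cavity of the tibia. The sham group had the same operation with Walker256 cells that had been boiled for 20 min. Spinal cord was taken 21 days after surgery, with 3 animals described per group. Both groups thus received injected tumour cell material, and no uninjected group is among the samples. Each group had 1 library, and the labels do not say whether it pools the animals. They give neither genotype nor age.

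A circRNA forms when the splicing machinery joins a downstream splice site back to an upstream one, so that a stretch of a transcript becomes a closed ring. Reads across that back-splice junction mark the ring and not the linear mRNA of the same gene. The host genes here encode the machinery of the synaptic vesicle cycle. Active zone scaffolds hold release sites in place, priming factors and syntaxin-binding proteins prepare vesicles, and SNARE proteins fuse the membranes under the control of calcium sensors. Dynamins, intersectins and clathrin adaptors then retrieve the vesicle. In the spinal cord this cycle serves, among others, the terminals that carry pain signals.

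The BCP library held 78836 back-splice reads and the sham library 113033, a depth ratio of sham over BCP of 1.43. Values are given as reads and as CPM, the reads scaled to an equal total of circRNA reads per library, with no division by length, since each read marks 1 junction. With 1 library per group there is no replicate check: a difference is one between a pair of libraries, and the spread between animals is unknown. The size rule below asks for at least 10 reads over both libraries, a ratio of BCP over sham of at least 2-fold either way after adding 0.5 reads to each count, and a 95% exact binomial interval of the ratio that excludes 1. All intervals are 95% and cover counting error only. They may be too narrow, because PCR copies cannot be told from separate molecules without identifiers. In bulk tissue, fewer cells of a type and less RNA per cell cannot be told apart.

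In sum these genes took a similar small part of both libraries. They had 532 reads in BCP, or 0.675% of the library (0.619 to 0.734), against 785 reads in sham, or 0.694% (0.647 to 0.745). The ratio of BCP over sham was 0.972 (0.869 to 1.09), a difference within counting error. BCP listed 73 of the 130 circRNAs and sham listed 106. Both listed 49 of them, 24 were listed in BCP alone and 57 in sham alone. Each of the 81 that appeared in 1 library had at most 9 reads, and the smallest count above 0 in either library was 2, which is 25.4 CPM in BCP and 17.7 CPM in sham. A circRNA listed at 0 is therefore not shown to be absent.

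**Figure D1:**
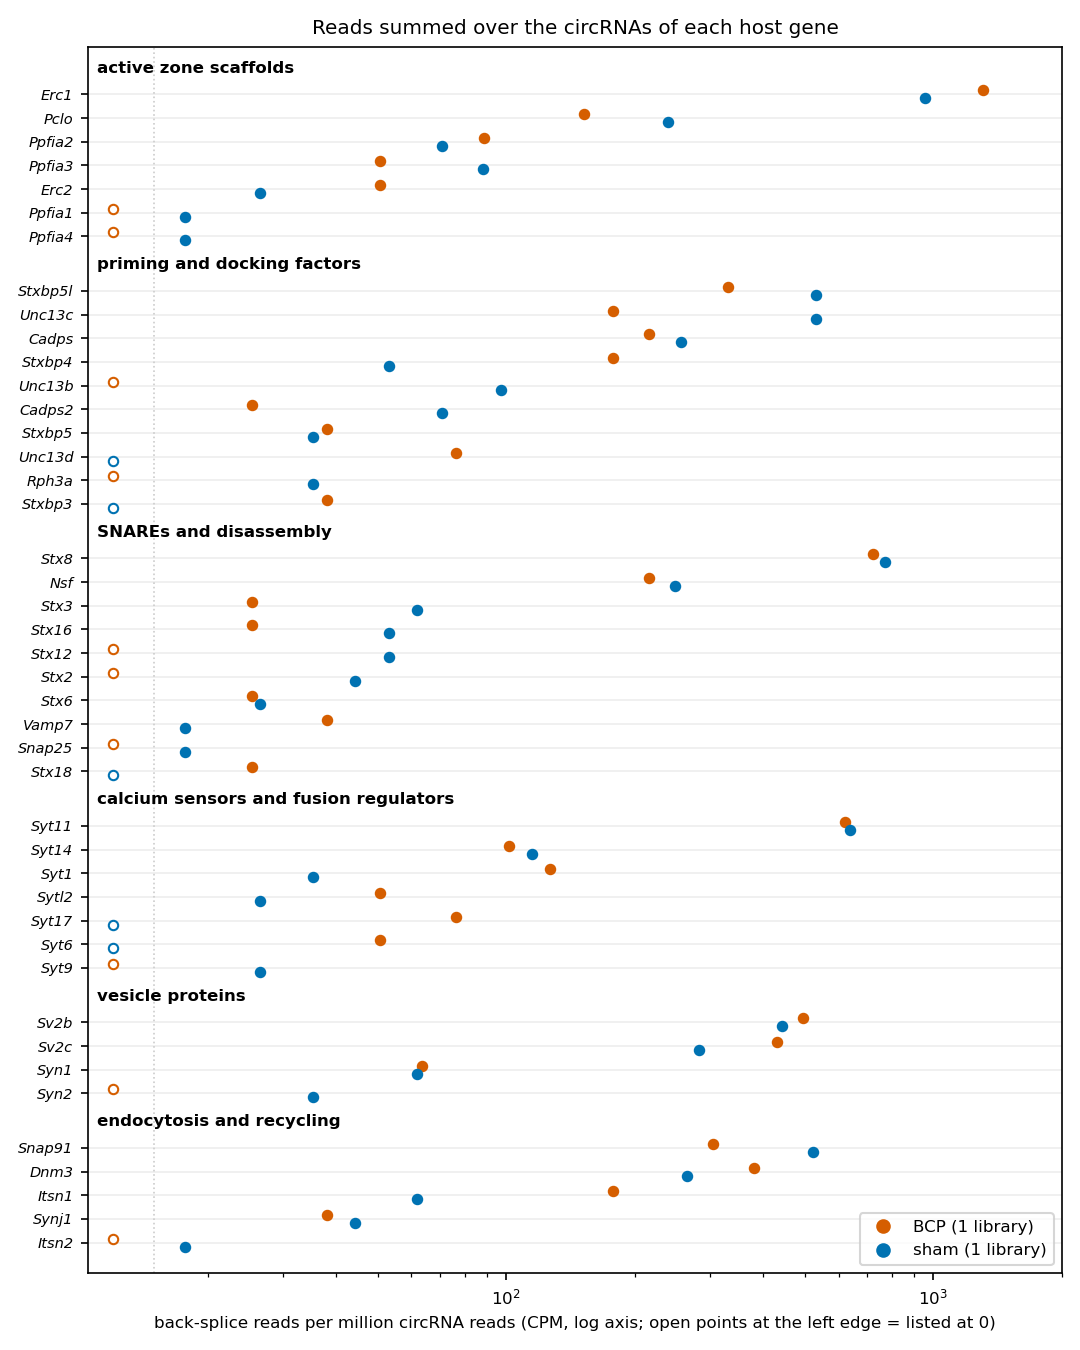
CPM summed over the circRNAs of 43 of the 44 host genes on a log axis, by role, with BCP in orange and sham in blue (1 library each); open points are genes listed at 0. Erc1 was at 1307 CPM in BCP and 955 CPM in sham, while most syntaxins lay under 100 CPM, and 15 genes were listed in only 1 library.

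Most of the members were thin. Of the 130, 73 had 5 reads or fewer over both libraries, and 26 had the 10 reads needed for the size rule. No member had exactly 10 reads and 4 had 9. The 12 with most reads held 48.8% of all member reads. By gene, 29 hosts were listed in both libraries, 5 in BCP alone and 10 in sham alone. All 130 lay on the chromosome that RefSeq (GRCr8) gives for their gene. In 129 the span was no longer than the RefSeq gene, and the exception was the 1 circRNA of Snap25, whose 187865 bp exceed a gene of 81871 bp, so its host name is doubtful.

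Of the 26 circRNAs with at least 10 reads, 4 were higher in BCP by the size rule (15.4%), 0 were lower and 22 met neither side. Among all 3502 such circRNAs, 7.82% were higher and 7.34% were lower. The 4 were a pair of Erc1 circRNAs, 1 of Sv2c and 1 of Syt1. The median log2 ratio was 0.14 over the 26 and 0.02 over the 3502. All 26 had reads in both libraries, whereas over all circRNAs 84 of the 274 higher calls were of circRNAs listed at 0 in sham, and 174 of the 257 lower calls of circRNAs listed at 0 in BCP. Only 2 of the 4 calls met the rule when the counts were scaled by median of ratios or by TMM, each of which lowers every log2 ratio by 0.10 or 0.12.

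**Figure D2:**
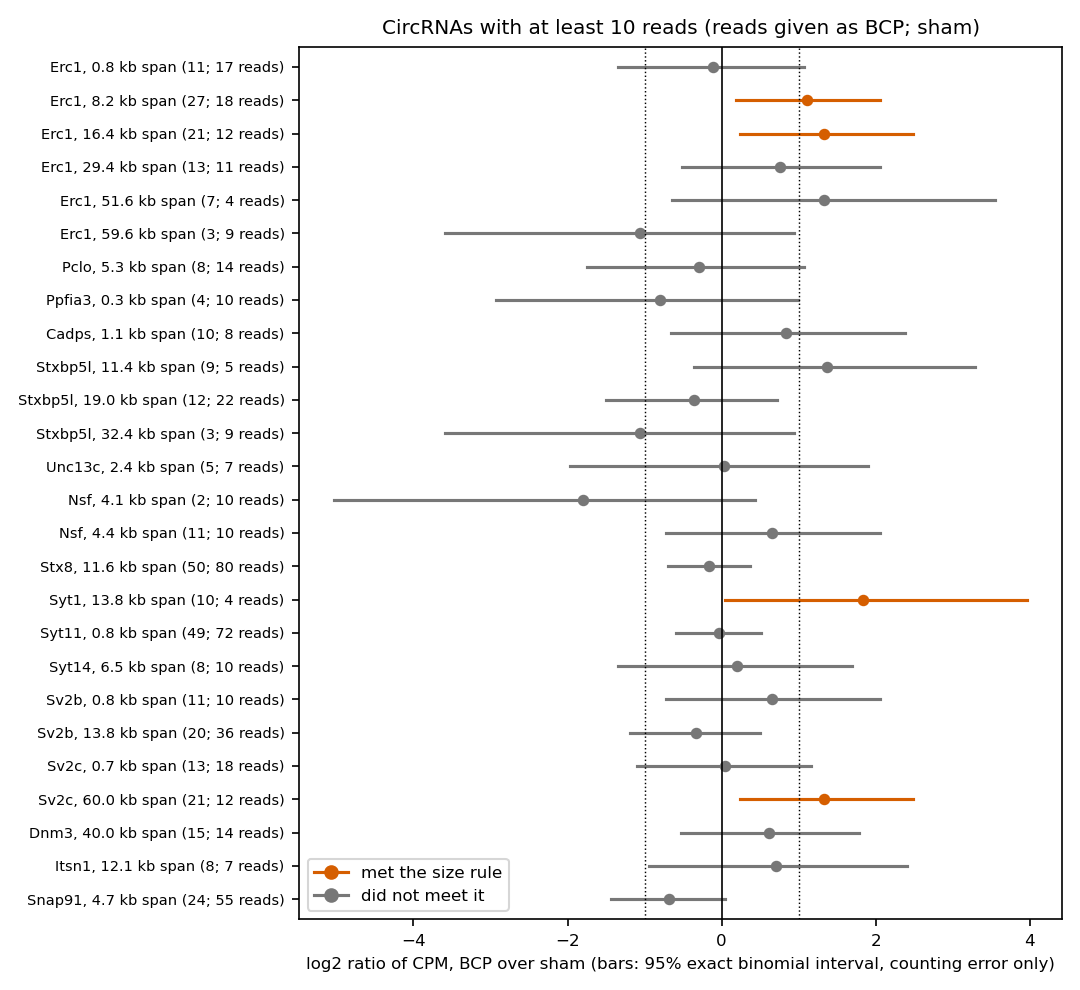
Log2 ratio of CPM, BCP over sham, for each of the 26 circRNAs with at least 10 reads, grouped by role and labelled with genomic span and with reads in BCP and then sham; bars are 95% exact binomial intervals and dotted lines mark 2-fold. The 4 orange circRNAs (2 of Erc1, 1 of Syt1, 1 of Sv2c) met the size rule, and the intervals of the other 22 include 0.

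**Figure D3:**
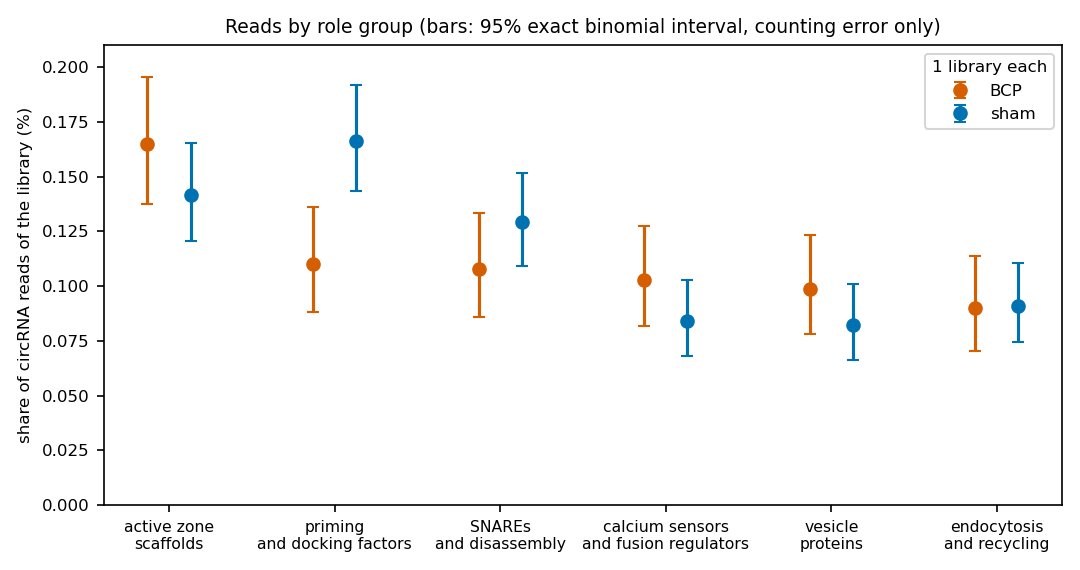
Share of all circRNA reads of a library, in percent, taken by each role group, with BCP left of sham and 95% exact binomial intervals. Priming and docking factors took 0.110% in BCP and 0.166% in sham, and this pair of intervals does not overlap.

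Active zone scaffolds had the most reads of the 6 role groups in BCP. They had 130 reads in BCP and 160 in sham (1649 and 1416 CPM), a ratio of 1.16 (0.917 to 1.48), from 28 circRNAs of 7 genes. Most of this was Erc1, the gene of the ELKS scaffold that links active zone proteins and also works in secretion outside neurons. Erc1 had 15 circRNAs with 103 reads in BCP and 108 in sham (1307 and 955 CPM), a ratio of 1.37 (1.03 to 1.81) that is under the 2-fold of the size rule. Its log2 ratio was 0.45, against 0.35 with median-of-ratios and 0.33 with TMM scaling. Either shift takes the lower bound of the interval under 1. Without Erc1 the group had a ratio of 0.744 (0.450 to 1.21), so its direction turns on this gene.

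The Erc1 rings that met the size rule shared a start (chromosome 4, build rn6). The most abundant one, 152265847 to 152274059, had 27 reads in BCP and 18 in sham (342 and 159 CPM), 2.15-fold higher in BCP (1.14 to 4.15). The next, which starts at the same position and ends at 152282197, had 21 reads in BCP and 12 in sham (266 and 106 CPM), 2.51-fold higher (1.18 to 5.59). Both met the size rule, and the first did not with median-of-ratios or TMM scaling. Another ring from that start, ending at 152298116, had 0 reads in BCP and 6 in sham. Together the 3 rings that begin at 152265847 had 48 and 36 reads in BCP and sham, a ratio of 1.91 (1.22 to 3.03). The 6 rings that begin at 152214416 had 31 and 37 reads, a ratio of 1.20 (0.721 to 1.99), and the 4 that begin at 152243667 had 13 and 15 reads, a ratio of 1.24 (0.544 to 2.80). These intervals overlap, and the starts were not shown to differ. A short ring of 823 bp at the far side of the gene (152355108 to 152355930) had 11 reads in BCP and 17 in sham and shared no site with the others.

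The Erc1 rings were built from few sites. The 15 circRNAs used 5 starts and 8 ends, 13 of them shared a site with another, and 78 of 105 pairs overlapped. In 3 places a start of one ring lay just before an end of another. The segments between them were 132 bp (152233299 to 152233430), 132 bp or 136 bp (152243667 to 152243798 or 152243802) and 194 bp (152265847 to 152266040). In the middle place the ends lie 4 bp apart: the ring with the lower end had 0 reads in BCP and 3 in sham, and the one with the higher end had 13 in BCP and 11 in sham. Exon annotation of the build was not used here.

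The other scaffolds were thinner. Pclo, which encodes the large scaffold piccolo, had 12 reads in BCP and 27 in sham from 5 circRNAs (152 and 239 CPM, ratio 0.637, 0.294 to 1.30). Its main ring (chromosome 4, 16496903 to 16502182) had 8 and 14 reads in BCP and sham. The liprin-alpha genes, whose products help assemble release sites, had 10 circRNA reads or fewer each per library. Ppfia2 had 7 in BCP and 8 in sham, and Ppfia3 had 4 in BCP and 10 in sham. Ppfia1 and Ppfia4 were listed at 0 in BCP and had 2 reads each in sham. Erc2, the brain-enriched relative of Erc1, had 4 reads in BCP and 3 in sham, each from a different ring. None of these 6 genes met the size rule, and 3 of them had too few reads to be tested.

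Priming and docking factors were the role group with the lowest ratio. The group had 87 reads in BCP and 188 in sham (1104 and 1663 CPM) from 47 circRNAs of 11 genes, 1.51-fold lower in BCP (1.16 to 1.97). Of the 47, 8 were listed in BCP alone with 28 reads and 27 in sham alone with 112 reads. The interval does not cover the sooner loss of thin rings in the shallower BCP library. The 12 rings with reads in both libraries had a ratio of 1.11 (0.778 to 1.58). Such a selection drops rings by the counts being compared, and here it dropped more sham reads than BCP reads, so this ratio does not show where the lower sum comes from. Without Unc13c the group's ratio was 0.818 (0.605 to 1.10). No single ring of this group met the size rule among the 5 tested.

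Unc13c, which encodes a member of the Munc13 priming family, had more circRNAs than any other gene of the set. Its 16 rings had 14 reads in BCP and 60 in sham (178 and 531 CPM), 2.99-fold lower in BCP (1.65 to 5.79), which met the size rule for host gene sums. Sham alone listed 12 of the 16, with 2 to 7 reads each and 46 in all. Rings this thin drop to 0 sooner in the shallower BCP library. The interval does not cover this, and its part in the lower sum was not tested. Only 3 rings had reads in both libraries, and these had 11 reads in BCP and 14 in sham, a ratio of 1.13 (0.463 to 2.67). As for the group, this selection was made on the counts compared. The ring with most reads (chromosome 8, 80435303 to 80437711) had 5 in BCP and 7 in sham. The ring from 80399934 to 80401748 and the one from 80399934 to 80437711 were listed at 0 in BCP and had 7 reads each in sham. The rings spread over 279491 bp, with 10 starts and 9 ends, and 15 of 16 shared a site with another. The end at 80437711 was used by 4 rings, with 5 reads in BCP and 21 in sham.

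**Figure D4:**
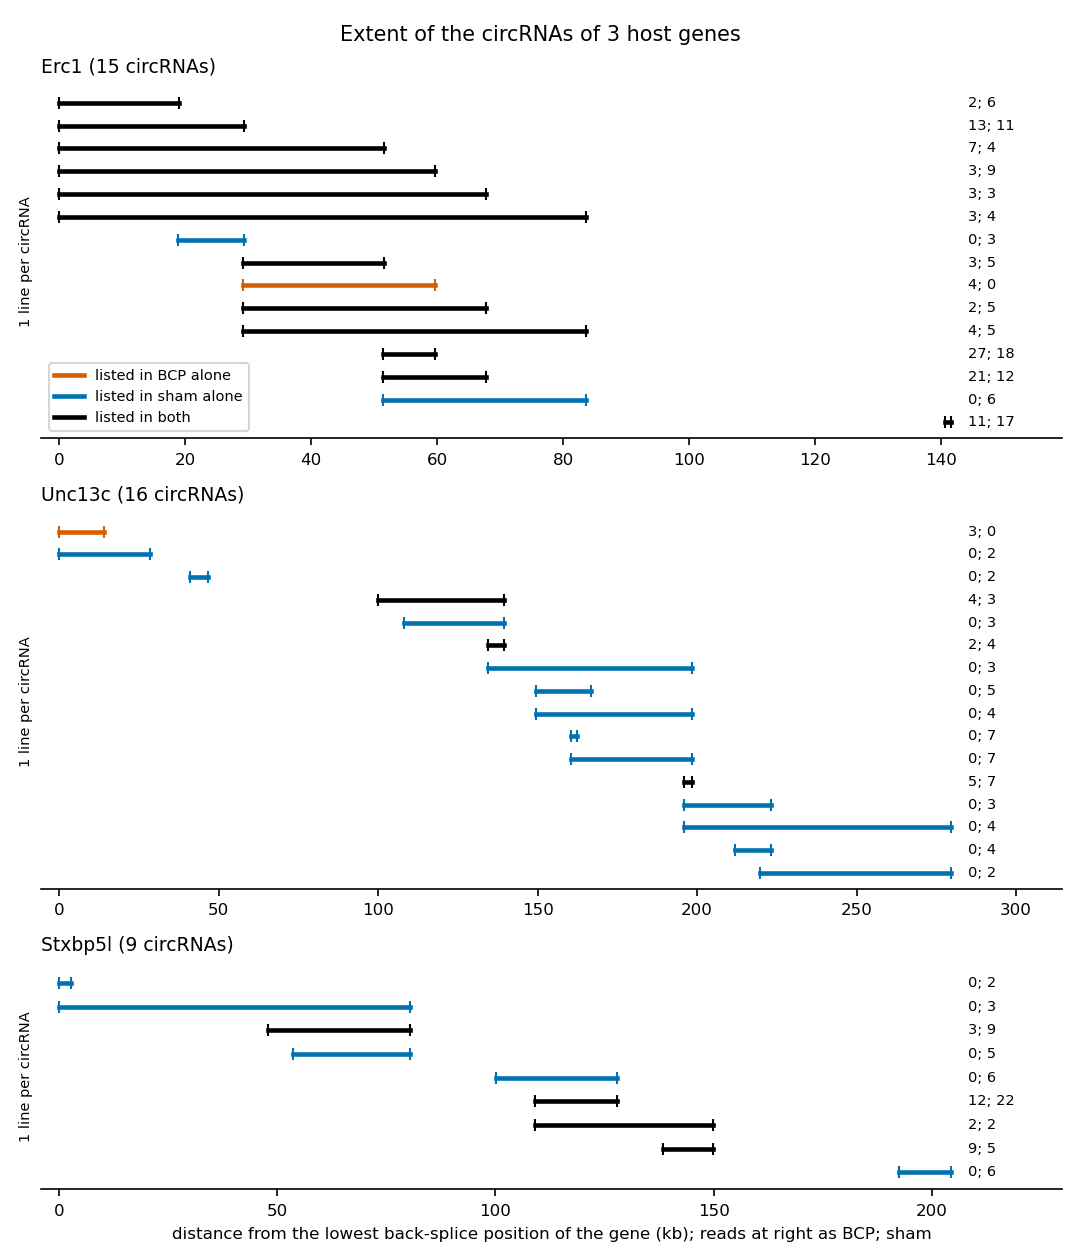
Extent of each circRNA of Erc1, Unc13c and Stxbp5l as a line, in kb from the lowest back-splice position of the gene; reads are given at the right as BCP and then sham. Erc1 had 12 of 15 rings in both libraries (black), whereas Unc13c had 12 of 16 and Stxbp5l 5 of 9 in sham alone (blue); orange marks BCP alone.

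The other Unc13 genes appeared in 1 library each. Unc13b, which encodes another Munc13 priming protein, had a pair of rings from the same start (chromosome 5, 58551128) that were listed at 0 in BCP and had 5 and 6 reads in sham. Its sum of 0 reads in BCP and 11 in sham met the size rule as lower. Unc13d, known for granule release in blood cells, had 6 reads in BCP and 0 in sham. No circRNA of Unc13a was listed. Since Unc13b has a library at 0, no fold is given, and with a minimum of 20 reads it is not tested.

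Stxbp5l encodes tomosyn-2, which like tomosyn (Stxbp5) binds SNAREs and restrains fusion. Its 9 rings had 26 reads in BCP and 60 in sham (330 and 531 CPM), 1.61-fold lower in BCP (1.00 to 2.66), short of the size rule. The main ring (chromosome 11, 66454714 to 66473675) had 12 reads in BCP and 22 in sham, a ratio of 0.782 (0.353 to 1.65). In the other direction, the ring from 66484230 to 66495638 had 9 in BCP and 5 in sham (ratio 2.58, 0.777 to 9.80). The 5 rings listed in sham alone held 22 reads, and the 4 with reads in both libraries had 26 in BCP and 38 in sham, a ratio of 0.981 (0.572 to 1.66). Stxbp5 itself had 3 and 4 reads in BCP and sham from 3 overlapping rings, of which 0 were in both libraries.

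Stxbp4, whose product binds syntaxin-4 and is known from glucose transporter traffic, went the other way. It had 14 reads in BCP and 6 in sham (178 and 53.1 CPM), 3.35-fold higher in BCP (1.21 to 10.6), and met the size rule for host sums. Its rings listed in BCP alone, 3 of 4, held 11 of the 14 reads. The ring in both libraries (chromosome 10, 78117809 to 78126033) had 3 reads in BCP and 6 in sham, too few to be tested and of the opposite direction.

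Cadps, which encodes a priming factor of dense-core vesicles, had 17 reads in BCP and 29 in sham from 5 rings (ratio 0.840, 0.433 to 1.58). Its main ring (chromosome 15, 15666724 to 15667775) had 10 and 8 reads in BCP and sham, and a longer ring that shared its end (15650971 to 15667775) had 0 in BCP and 9 in sham. Cadps2 had 2 reads in BCP and 8 in sham. Stxbp3 had 3 and 0 reads in BCP and sham, and the Rab3 effector gene Rph3a had 0 and 4. Of these 4 genes 0 met the size rule, and 2 had too few reads to be tested.

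SNARE genes and Nsf had 85 reads in BCP and 146 in sham (1078 and 1292 CPM), a ratio of 0.835 (0.631 to 1.10), from 18 circRNAs of 10 genes. Of the genes on this list 10 of 29 were listed, and those of the core synaptic SNAREs Stx1a and Vamp2 were not among them. Most reads came from Stx8, a SNARE of late endosomes, which hosted the most abundant circRNA of the whole set (chromosome 10, 54552998 to 54564596). That ring had 50 reads in BCP and 80 in sham (634 and 708 CPM), a ratio of 0.896 (0.616 to 1.29). The other 4 Stx8 rings each shared a site with it and had 2 to 5 reads in 1 library: 2 and 5 reads in BCP, and 2 and 5 in sham. The ring that dominates Stx8 held 87.7% of the gene's reads in BCP and 92.0% in sham.

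Nsf, the ATPase that pulls used SNARE complexes apart, had 17 reads in BCP and 28 in sham from 4 rings (ratio 0.871, 0.447 to 1.65). Its ring from 91981869 to 91986242 on chromosome 10 had 11 reads in BCP and 10 in sham (ratio 1.58, 0.608 to 4.14), and that from 91913305 to 91917394 had 2 and 10 (ratio 0.287, 0.0305 to 1.35). Both intervals include 1 and they overlap, so the rings were not shown to differ. The remaining SNARE genes had 9 reads or fewer over both libraries. In BCP and sham, the plasma membrane syntaxins Stx2 and Stx3 had 0 and 5 reads and 2 and 7 reads. Among the endosomal and Golgi genes, again in BCP and sham, Stx6 had 2 and 3 reads, Stx12 had 0 and 6, Stx16 had 2 and 6 and Vamp7 had 3 and 2. The endoplasmic reticulum gene Stx18 had 2 reads in BCP and 0 in sham, and Snap25 had 0 in BCP and 2 in sham.

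Calcium sensors and fusion regulators had 81 reads in BCP and 95 in sham (1027 and 840 CPM), a ratio of 1.22 (0.897 to 1.66), from 10 circRNAs of 7 genes. Syt11, a synaptotagmin that does not bind calcium, gave most of them through a single ring of 824 bp (chromosome 2, 188127807 to 188128630). It had 49 reads in BCP and 72 in sham (622 and 637 CPM), a ratio of 0.976 (0.665 to 1.42), within counting error. Without Syt11, left out after seeing the data, the group had 32 reads in BCP and 23 in sham, a ratio of 1.99 (1.13 to 3.57). Of these reads Syt1 held 10 and 4, Syt17 6 and 0, Syt6 4 and 0, and Sytl2 4 and 3. In the other direction, Syt14 held 8 in BCP and 13 in sham, and Syt9 0 and 3.

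Syt1, the gene of the fast calcium sensor of synaptic release, had 1 ring (chromosome 7, 50218839 to 50232687). It had 10 reads in BCP and 4 in sham (127 and 35.4 CPM), 3.58-fold higher in BCP (1.03 to 15.7). It met the size rule with an interval that just excludes 1, and did not meet it with median-of-ratios or TMM scaling. The main ring of Syt14, another synaptotagmin that does not depend on calcium, had 8 reads in BCP and 10 in sham. Syt17 had 6 and Syt6 had 4 reads in BCP, and both were listed at 0 in sham. Syt9 had 0 reads in BCP and 3 in sham. The Rab27 effector gene Sytl2 had 4 reads in BCP and 3 in sham, from rings that share an end and whose starts are 43 bp apart.

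Vesicle proteins had 78 reads in BCP and 93 in sham (989 and 823 CPM), a ratio of 1.20 (0.878 to 1.64), from 11 circRNAs. Sv2b and Sv2c, which encode glycoproteins of the vesicle membrane, held most of it. Sv2c had a pair of main rings with the same end (chromosome 2, 26650618) and unlike spans. The long one, which starts at 26590643 and spans 59976 bp, had 21 reads in BCP and 12 in sham (266 and 106 CPM), 2.51-fold higher in BCP (1.18 to 5.59), and met the size rule. The short one, which starts at 26649938 and spans 681 bp, had 13 reads in BCP and 18 in sham (165 and 159 CPM, ratio 1.04, 0.466 to 2.24). The long ring thus held 61.8% of the gene's reads in BCP and 37.5% in sham. The intervals of this pair of rings overlap, so the rings were not shown to differ. Summed, Sv2c had 34 and 32 reads in BCP and sham, a ratio of 1.52 (0.912 to 2.55).

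Sv2b had 39 reads in BCP and 50 in sham from 5 rings (ratio 1.12, 0.716 to 1.73). Its main ring (chromosome 1, 136685584 to 136699335) had 20 in BCP and 36 in sham, a ratio of 0.797 (0.437 to 1.41). A pair of shorter rings that end at the same position had 6 and 2 reads in BCP and 0 in sham, and the end as a whole had 28 and 36 reads in BCP and sham (ratio 1.12, 0.655 to 1.88). The synapsin genes, whose products tether vesicles in the reserve pool, were thin. Syn1 had 5 reads in BCP from a ring of 9545 bp, and 7 in sham from a ring of 240 bp inside it. Syn2 had 0 reads in BCP and 4 in sham.

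Endocytosis and recycling genes had 71 reads in BCP and 103 in sham (901 and 911 CPM), a ratio of 0.988 (0.720 to 1.35), from 16 circRNAs of 5 genes. The genes pulled in opposite directions. Snap91, which encodes a clathrin assembly protein of nerve terminals, had 24 reads in BCP and 59 in sham (304 and 522 CPM), 1.71-fold lower in BCP (1.05 to 2.88), under the 2-fold of the size rule. Its main ring (chromosome 8, 94525778 to 94530500) held all 24 BCP reads and 55 of the sham reads, a ratio of 0.626 (0.370 to 1.03). Without Snap91 the group had a ratio of 1.53 (0.993 to 2.37).

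Itsn1, the gene of an endocytic scaffold, had 14 reads in BCP and 7 in sham (178 and 61.9 CPM), 2.87-fold higher in BCP (1.08 to 8.39), and met the size rule for host sums. Its 2 rings share a start (chromosome 11, 31943121). The one that ends at 31955266 had 8 reads in BCP and 7 in sham (ratio 1.64, 0.519 to 5.31), and the one that ends at 31946043 had 6 in BCP and 0 in sham. With TMM scaling, or from the ring in both libraries alone, Itsn1 did not meet the rule. Dnm3, a dynamin gene of neurons, had 30 reads in each library from 7 rings (381 and 265 CPM in BCP and sham, ratio 1.43, 0.835 to 2.46). Its main ring (chromosome 13, 80140001 to 80180020) had 15 and 14 reads in BCP and sham. Synj1, which encodes a lipid phosphatase that acts when the clathrin coat is shed, had 3 reads in BCP and 5 in sham, and Itsn2 had 0 and 2.

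Summed by host gene, 21 of the 44 hosts had at least 10 reads. Of these, 3 were higher in BCP (Itsn1, Stxbp4 and Syt1; 14.3%) and 2 were lower (Unc13b and Unc13c; 9.52%), and 16 met neither side. Over all 2144 host genes with enough reads the rule called 8.82% higher and 8.49% lower. From rings with reads in both libraries alone, a selection made on the counts compared, 1 of the 5 genes met the rule, which was Syt1. For Syt1 this was fixed in advance, as its only ring has reads in both libraries. Unc13b, with 0 such reads, and Stxbp4, with 9, had too few to be tested. Itsn1 and Unc13c were tested and did not meet the rule.

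Sites were reused within genes. Of the 44 hosts, 25 had more than 1 ring, and 79 of the 111 rings of these 25 (71.2%) shared a start or an end with another ring of the gene. Over all 2025 host genes with more than 1 ring the share was 72.8%. A start of one ring within 300 bp before an end of another was found in 5 of the 25 genes (20.0%), with segments of 82 to 194 bp, and in 20.0% of the 2025. Rings per host numbered 2 at the median in both sets. The median span was 13963 bp in the set and 9385 bp over all circRNAs with 1 host, and spans of at most 500 bp made up 1.54% and 6.05%. Rings listed in BCP alone were 18.5% of the set and 22.0% of all with 1 host, and those in sham alone were 43.8% and 36.0%. These are descriptions without a test.

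Other genes of the same pathways were looked up from lists. Of 34 further presynaptic genes, 15 had 28 circRNAs with 120 reads in BCP and 168 in sham (ratio 1.02, 0.803 to 1.30), and 1 of 8 tested rings was higher and 0 lower. Over all 3502 tested circRNAs, 7.82% were higher and 7.34% were lower, for comparison with this list and the next. The sum of Rab3ip, which encodes a Rab exchange factor, had 13 and 4 reads in BCP and sham and met the rule as higher (4.66-fold, 1.44 to 19.6). The ring called higher was not of Rab3ip, whose 3 rings each had too few reads to be tested. A Rab3ip ring listed at 0 in sham held 7 of the gene's 13 BCP reads. Of 32 further endocytosis genes, 17 had 42 circRNAs with 360 reads in BCP and 495 in sham (ratio 1.04, 0.908 to 1.20), and 0 of 15 tested rings were higher and 1 lower. That one was of the clathrin light chain gene Clta (chromosome 5, 59497085 to 59502275), with 6 reads in BCP and 23 in sham, 2.67-fold lower (1.06 to 8.03). A shorter Clta ring from the same start, with more reads, had 31 and 44 reads in BCP and sham, a ratio of 1.01 (0.617 to 1.64).

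Markers of 5 cell classes were listed, and the interval of the summed ratio excluded 1 for 3 of them (oligodendrocytes, microglia and macrophages, and astrocytes). Neuron markers had 7 of 19 genes listed, with 231 reads in BCP and 381 in sham (2930 and 3371 CPM, ratio 0.869, 0.735 to 1.03). Elavl3 held 119 of these in BCP and 246 in sham (ratio 0.694, 0.552 to 0.867), with 1 ring at 0 and 52. In the other direction, Map2 had 77 and 102 reads (ratio 1.08), Nefm 14 and 17 (1.18), Rbfox3 15 and 11 (1.96) and Nefl 6 and 0. Nefh had 0 in BCP and 3 in sham, and Slc5a7 0 and 2. Tubb3, Gad1, Gad2, Chat and Slc17a6 were among those at 0 in both. Oligodendrocyte markers had 7 of 17 listed, with 68 reads in BCP and 34 in sham (863 and 301 CPM, ratio 2.87, 1.87 to 4.46). Mbp, a myelin gene, held 36 of these reads in BCP and 6 in sham, while Ugt8 had 5 in BCP and 11 in sham, Ermn 6 and 9, and Mog 0 and 3. Microglia and macrophage markers had 3 of 15 listed, with 55 and 13 reads in BCP and sham (698 and 115 CPM, ratio 6.07, 3.27 to 12.1). These were mostly from 1 ring of Ikzf1 with 43 in BCP and 11 in sham. Dock8 had 12 in BCP and 0 in sham, and Ptprc went the other way with 0 and 2. The markers Aif1, Cx3cr1 and Csf1r were at 0. Astrocyte markers had 2 of 11 listed, with 42 reads in BCP and 19 in sham (533 and 168 CPM, ratio 3.17, 1.803 to 5.77), and Gfap and Aqp4 were at 0. Slc7a11 held 39 of these in BCP and 14 in sham, with 1 ring at 32 and 0, and the other marker listed, Slc1a2, had 3 in BCP and 5 in sham. Vessel and pericyte markers had 3 of 11 listed, with 34 reads in BCP and 39 in sham (431 and 345 CPM, ratio 1.25, 0.765 to 2.03). All 3 met the size rule for host sums and in opposite directions, with Vwf at 24 reads in BCP and 9 in sham, Tek at 10 and 3, and Flt1 at 0 and 27. Over all 2144 host genes with enough reads, 17.3% met it in either direction. No tested ring of Vwf or Tek met the rule by itself. Both sums include rings listed in BCP alone, and that of Vwf also a ring with 0 reads in BCP and 2 in sham. Skeletal muscle and carcinoma markers had 0 of 9 and 0 of 6 genes listed. The part of these cell classes in the ratios of the vesicle genes was not tested.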

How the data were processed

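Back-splice reads were measured in 1 BCP and 1 sham library after ribosomal RNA removal and RNase R digestion (16 units, 15 min), per the labels' protocols. The deposited counts are whole numbers, 0 or at least 2. The authors' columns headed TPM hold CPM, that is each count over its column total, within a tolerance of 0.001, and 0.001 stands for 0. The submitters' processing notes name CASAVA 1.8, BWA and build rn6, while the circRNA caller and its read minimum are not stated there. RNase R and a read minimum decide which rings are counted, and thin rings drop to 0 sooner in the shallower library.

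Small RNA family names and 65 names covering over 3 Mb of a chromosome were dropped. The prefixes Erc, Stxbp, Syt, Snap, Syn, Stx, Dnm and Vamp had to be followed by digits with at most 1 further letter. Syt could also take l and digits, and Unc13, Sv2 and Rab3 took 1 letter, which digits could follow. This leaves out Ercc, Sync, Syne and Snapc genes. Ppfia, Cadps, Synj, Itsn, Cplx and Doc2 could have any ending or none. Each member ring then had 1 host name, and all 44 hosts matched a RefSeq symbol. Ratios carry conditional exact binomial (Clopper-Pearson) intervals (scipy 1.17.1). The size rule was run on the whole table, and with 1 library per group no p-value could be had. A trial of the rule on simulated counts had counting error only. It had no spread between animals and no PCR copies, so it cannot show how often unchanged rings are called here. The rule for names took the 12 rings with most reads, rings or hosts that met the size rule, and the 5 hosts with most rings; the others were named after their values were seen. Alternatives used DESeq2 1.42.0 median-of-ratios and edgeR 4.0.16 TMM factors. Members and lists were chosen with earlier results of these data known. Some genes are not reported here by name, although their reads stay in the sums.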

Additional observations from a re-analysis of the deposited data

How the results depend on the processing

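Each of 12 summary results was recomputed under 10 alternatives and the role groups under further ones chosen after seeing the data. In all, 112 recomputed summary values stayed within counting error, or within 1.5 times for counts, of the value reported, and 16 did not. Many of the 112 could not change, so their number does not measure robustness. The summed ratios use neither the read minimum nor the reads added to each count. Each member ring already had a single host name, so keeping only such rings changed nothing. Adding the Rab3 regulator genes, which are in no role group, left the role group ratios as they were. With median-of-ratios or TMM scaling, 2 circRNAs were higher in place of 4 (among all circRNAs tested, 231 and 228 were higher in place of 274, and 304 and 308 lower in place of 257), and with TMM 1 host gene was higher in place of 3. With no read minimum, 13 circRNAs were higher and 5 lower, 5 host genes were higher, and the median log2 ratio was -0.64, since thin rings listed in sham alone then enter. With at least 20 reads, 1 host gene was lower in place of 2. From circRNAs with reads in both libraries only, a selection that the counts compared decide, 1 host gene was higher and 0 lower, the summed ratio of all members was 1.10 in place of 0.972, and that of priming and docking factors turned to 1.11 from 0.664. The log2 ratio of the sum of Unc13c then turned to 0.19. Without Unc13c, chosen after seeing the data, the priming ratio was 0.818 with an interval that includes 1. Leaving out the host with most reads, also chosen after seeing the data, moved the ratio to 0.744 for active zone scaffolds (Erc1), 1.99 for calcium sensors (Syt11) and 1.53 for endocytosis (Snap91). Dropping Dnm1l and Synj2bp changed nothing, as neither was listed. Depth limits the rings one by one, since most had 5 reads or fewer, and 1 library per group leaves the spread between animals unknown. No paired analysis was possible because each group had 1 library.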
